A study of Mus musculus with 50 samples.

Results

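The transcriptome of *Ezh1/2* dKO ESCs was compared with that of WT ESCs, using 4 RNA-seq libraries, the 2 replicates named for the double knockout and the 2 named for the parental E14 line, of the 50 samples of the study. All genes of the normalized count table entered, 18055 in number, and the changes were recomputed from the counts for the 13872 genes that averaged 5 or more normalized counts over the 8 RNA-seq libraries. The study asked what methylation and acetylation of lysine 27 on histone H3 (H3K27) each contribute to repression by the Polycomb repressive complex PRC2, and it profiled chromatin and RNA in a set of mutant lines. WT cells are E14TG2a, a male mouse ESC line kept undifferentiated on gelatin, without feeder cells, in serum medium with LIF and inhibitors of GSK3β and MEK. *Ezh1/2* dKO cells are a CRISPR/Cas9 clone of that line from which *Ezh1* and *Ezh2* were both excised with pairs of guide RNAs. Beside them stand *Ezh2* KO cells, which keep *Ezh1*, and *Ezh2* Y726D cells, which carry a point mutation in the catalytic domain of EZH2 on an *Ezh1* KO background. Each line has 2 RNA-seq libraries. The study's reporting form calls its samples biological replicates in general, and the labels do not say whether these libraries came from separate cultures, so p-values measure the spread between libraries, part of which may be technical. A difference that belongs to the clone cannot be told apart from one that belongs to the genotype.

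PRC2 methylates H3K27 through EZH2 or its paralog EZH1, on a core formed with EED and SUZ12, and trimethylation (H3K27me3) marks promoters of developmental regulators that ESCs keep silent until differentiation. PRC1, the second Polycomb complex, contains CBX proteins that bind H3K27me3 and RING proteins that ubiquitinate histone H2A. Without both enzymes no H3K27 methyltransferase of this family remains, and the same lysine can be acetylated (H3K27ac) by EP300 and CREBBP.

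The knockouts were visible in the RNA. *Ezh2* had normalized counts of 598 and 546 in the WT libraries and of 0.824 and 1.78 in the dKO libraries, which hold 3 *Ezh2* reads together, a WT to dKO ratio of 443 at equal depth (95% interval 151 to 2150, counting error only). *Ezh1* had 227 and 377 in WT and 14 and 20.4 in dKO, a log2 fold change of -4.03 ± 0.35 (SE, n = 2 per line, adjusted p = 0.00269). *Ezh1* transcript thus remained at a low level in both dKO libraries, as it did in *Ezh2* Y726D cells with 24.1 and 15.7, while *Ezh2* KO cells had 372 and 378. The source of these reads was not tested. The 8 libraries held 3604123 to 5181553 reads on genes, so that 1 read equals a normalized count between 0.824 and 1.33. The dKO libraries had a read for 17042 and 17104 genes and the WT libraries for 15660 and 16350. At equal depth these numbers were 16716 and 16815 against 15660 and 16079, so more genes were detected in both dKO libraries.

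Libraries of 1 line were not alike in every respect. WT replicate 1 held *Egr1* at 2118 and *Fos* at 1876, immediate early genes that a growth stimulus induces within minutes, against 9.63 and 13.5 in WT replicate 2. WT replicate 2 and both *Ezh2* KO libraries held 6 genes at 17.8 to 125, *Agr2*, *Fabp1*, *Lgals2*, *Olfm4*, *Rnf186* and *Tm4sf4*, most of them known from intestinal epithelium, which did not exceed 1.65 in the other 5 libraries. These 8 genes were chosen after their values were seen, and none of them was called in dKO. All 10 ESC markers were present in all libraries, and the limma test called 0 of them in dKO, with 2 at an unadjusted p under 0.05 and 0 by edgeR and by DESeq2. *Pou5f1*, the core pluripotency factor OCT4, had 1916 and 1486 in WT and 1328 and 1405 in dKO (log2 fold change -0.30 ± 0.15, adjusted p = 0.304). Of 9 markers of fibroblasts, the cells commonly used as feeders, 6 were in the table. Their summed count was 12.0 and 4.81 in WT and 110.5 and 126 in dKO. Most of that sum was *Thy1*, a surface protein, and the collagens that define fibroblasts, *Col1a1* and *Col1a2*, stayed at 2.66 to 11.54 in dKO and at 0 to 1.33 in WT. Of the 6, 4 and 5 were at 0 in the WT libraries and 0 and 1 in the dKO libraries. Their part in the results was not tested.

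Loss of both enzymes was followed by a mostly upward change in the transcriptome. At an adjusted p under 0.1 and a change of at least 1 on the log2 scale, 503 genes were called higher in dKO than in WT (3.63% of the genes tested) and 54 lower (0.389%), and the median log2 fold change over all genes tested was 0.01. Both dKO libraries lay beyond both WT libraries for every called gene. Of the genes called higher, 283 rose by at least 2 on the log2 scale and 102 by at least 3, while 9 and 3 of the genes called lower fell by that much. The 2 groups differed in their starting level, since the genes called higher had a median normalized count of 17.5 in WT and 86.9 in dKO, whereas those called lower had 257 in WT and 93.3 in dKO. A WT mean under 5 was found for 115 of the genes called higher, and 18 of them had no WT read. Such genes entered the test only because they were high in another line. In bulk RNA, more cells expressing a gene and more RNA per cell cannot be told apart.

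The direction of the change held for every called gene with edgeR and DESeq2. Of 13872 genes, edgeR called 516 higher (3.72%) and 52 lower (0.375%). DESeq2 was run without the filter on the mean and called 515 higher (2.85%) and 74 lower (0.41%) of 18055 genes. Of the 503 genes, 483 were also called higher by edgeR and 427 by DESeq2. The counts rest on both dKO libraries, because 7 genes were called higher without dKO replicate 1 and 1 without dKO replicate 2, and 2 lower in either case, where the lone dKO library was assumed to vary like the other lines. Without WT replicate 1 there were 510 higher and 62 lower, and without WT replicate 2 there were 470 and 60. Quantile normalization, which gives all libraries the same distribution, left 281 higher and 108 lower, a share of 72.2% higher among the calls in place of 90.3%.

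**Figure D1:**
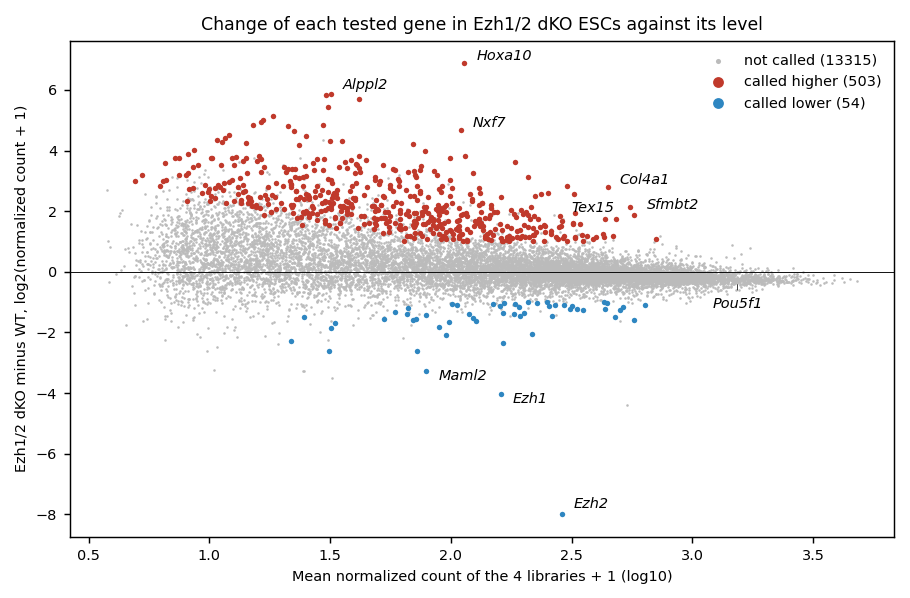
Change of each of the 13872 genes tested, as the difference of dKO and WT means on the log2(normalized count + 1) scale, against the mean normalized count of the 4 libraries (log10). The 503 genes called higher (red) lie mainly at low and middle levels, the 54 called lower (blue) reach down to *Ezh1* and *Ezh2*, and highly expressed genes such as *Pou5f1* lie close to 0.

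The 15 largest rises joined posterior Hox genes with genes of quite different function. *Hoxa10*, which patterns the posterior body axis, had 2.67 and 0 in WT and 226 and 223 in dKO, a ratio of 201 (95% interval 55.3 to 1661, counting error only, 2 WT reads; adjusted p = 0.00845). *Alppl2*, an alkaline phosphatase at the cell surface, had no WT read and reached 38.7 and 84.4 in dKO, at least 36.2-fold higher against a floor of 3 reads over the WT group (adjusted p = 0.00655). *Vnn1*, a pantetheinase of the cell surface, likewise went from no read to 42.9 and 74.6, at least 34.7-fold (adjusted p = 0.00585). *Brdt*, the bromodomain protein of the testis, had 0 and 0.963 in WT and 51.9 and 67.5 in dKO (ratio 106, 95% interval 18.8 to 4226, 1 WT read). *Nxf7*, a gene related to the mRNA export factor NXF1, had 6.67 and 7.70 in WT and 167 and 255 in dKO, a log2 fold change of 4.67 ± 0.40 (adjusted p = 0.00269). The hyaluronan receptor *Cd44* (27.2 and 35.5 in dKO), the fibrillar collagen *Col5a2* (24.7 and 36.4) and the flavin monooxygenase *Fmo1* (9.89 and 71.0) had no WT read, which makes them at least 18.6-fold, 18.1-fold and 23.4-fold higher. *Fmo1* differed most between the dKO libraries and has the largest adjusted p of the 15 (0.0352). *Hoxd13* (33.8 and 23.1 in dKO) and the uncharacterized *1700019B21Rik* (42.0 and 27.5) had no WT read either and were at least 17.1-fold and 20.9-fold higher. The phospholipase *Pla2g4a* went from 1.33 and 0.963 to 51.9 and 42.6, and the synaptotagmin *Syt13* from 0 and 1.93 to 46.2 and 37.3. *Alppl2* and *Nxf7* have close paralogs between which the counting could divide reads.

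The promoters of 5 genes called higher are shown because they differ in binding by PRC2 and in CpG content, which is taken up with the chromatin data. Each line gives 300 bases of the mm9 reference, from 250 before to 50 after the start site used by most annotated transcripts, 5′ to 3′ on the strand of the gene, with every CG dinucleotide in capitals (the same on both strands). *Hoxa10* (chr6:52184889-52185188, minus strand) and *Cbx8* (chr11:118902234-118902533, minus strand) were bound by SUZ12 in WT, and *Brdt* (chr5:107759928-107760227, plus strand), *Alppl2* (chr1:88986454-88986753, minus strand) and *Vnn1* (chr10:23614244-23614543, plus strand) had no SUZ12 peak within 5 kb of a start site.
Hoxa10: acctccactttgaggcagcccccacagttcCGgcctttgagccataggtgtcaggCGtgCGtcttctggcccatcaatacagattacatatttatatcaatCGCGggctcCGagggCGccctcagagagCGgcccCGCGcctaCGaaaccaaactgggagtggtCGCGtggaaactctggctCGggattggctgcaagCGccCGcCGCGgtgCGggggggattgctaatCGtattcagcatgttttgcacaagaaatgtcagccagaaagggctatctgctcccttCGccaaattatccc
Cbx8: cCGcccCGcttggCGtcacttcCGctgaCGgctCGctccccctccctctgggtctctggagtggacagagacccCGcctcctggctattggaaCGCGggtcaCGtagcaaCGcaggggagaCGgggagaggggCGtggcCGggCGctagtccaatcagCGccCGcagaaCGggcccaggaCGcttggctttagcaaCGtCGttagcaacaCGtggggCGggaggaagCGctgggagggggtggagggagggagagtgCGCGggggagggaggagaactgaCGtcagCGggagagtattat
Brdt: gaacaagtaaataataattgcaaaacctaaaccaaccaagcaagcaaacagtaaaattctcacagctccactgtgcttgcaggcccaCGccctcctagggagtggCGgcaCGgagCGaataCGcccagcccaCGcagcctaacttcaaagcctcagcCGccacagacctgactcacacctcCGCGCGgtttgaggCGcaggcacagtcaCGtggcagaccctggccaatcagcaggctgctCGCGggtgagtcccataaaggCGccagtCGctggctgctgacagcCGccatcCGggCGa
Alppl2: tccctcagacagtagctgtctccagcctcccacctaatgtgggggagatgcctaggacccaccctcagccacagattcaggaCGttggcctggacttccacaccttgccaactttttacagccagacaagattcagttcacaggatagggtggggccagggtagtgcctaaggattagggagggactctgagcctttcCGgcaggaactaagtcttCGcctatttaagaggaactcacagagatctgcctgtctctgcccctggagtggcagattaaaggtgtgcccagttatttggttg
Vnn1: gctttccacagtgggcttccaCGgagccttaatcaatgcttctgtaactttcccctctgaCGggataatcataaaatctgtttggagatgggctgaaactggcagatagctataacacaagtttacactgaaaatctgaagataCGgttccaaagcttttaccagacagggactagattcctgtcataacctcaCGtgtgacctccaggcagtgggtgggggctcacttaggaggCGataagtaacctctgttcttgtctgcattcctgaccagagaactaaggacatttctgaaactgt

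The 10 largest falls began with both deleted genes. *Maml2*, a coactivator of Notch signalling, came next, with 153 and 131 in WT and 19 and 9.77 in dKO (log2 fold change -3.28 ± 0.60, adjusted p = 0.0308). It was as low in *Ezh2* KO cells (4.18 and 2.90) and in *Ezh2* Y726D cells (8.02 and 2.24), so its level was high in the WT line only. *Nkx6-3*, a homeobox gene of the stomach, had 28.0 and 79.0 in WT and 7.42 and 6.22 in dKO (-2.63 ± 0.54, adjusted p = 0.0422), while *Ezh2* KO cells had 40.8 and 40.6. *Accsl* had 297.5 and 400 in WT and 74.2 and 89.7 in dKO (-2.07 ± 0.24, adjusted p = 0.00705). Of the others, the neuronal intermediate filament *Ina* was at 141 and 105 in WT and 20.6 and 17.8 in dKO, the postsynaptic scaffold *Dlgap3* at 262 and 285 against 69.2 and 40.8, and the kinase *Brsk1* at 41.4 and 55.8 against 8.24 and 18.7. *Def6* and *Kis2* completed the list, with log2 fold changes of -2.08 ± 0.37 and -2.27 ± 0.59.

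**Figure D2:**
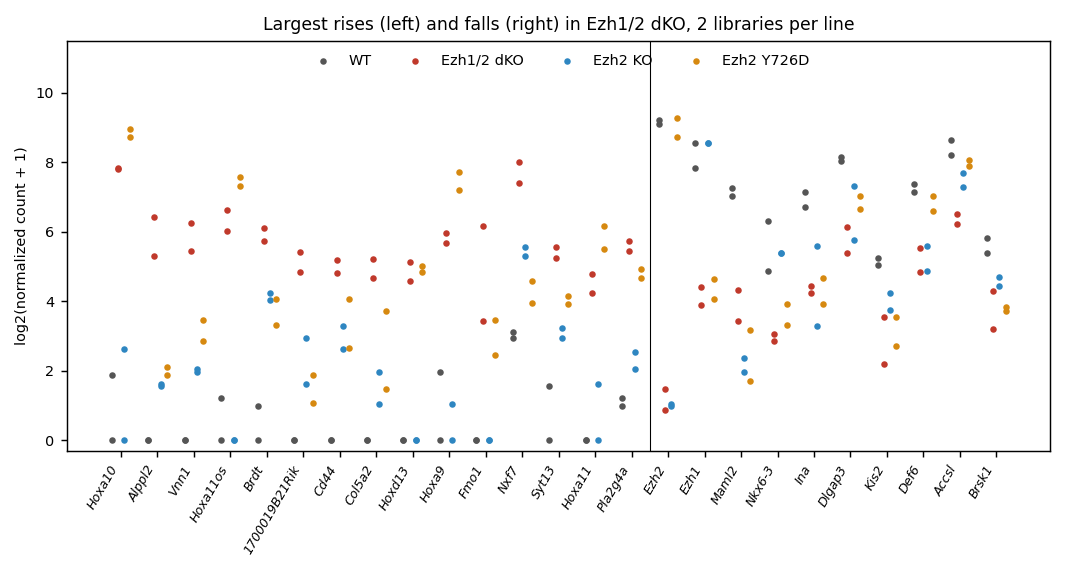
Normalized counts, as log2(count + 1), of the 15 genes with the largest rise (left) and the 10 with the largest fall (right) in dKO, with 1 point per library and 2 libraries per line. The red dKO points lie above the grey WT points for all genes at left and below them for all genes at right, and the orange *Ezh2* Y726D points lie above the red ones for *Hoxa9*, *Hoxa10*, *Hoxa11* and *Hoxa11os*.

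Among gene lists with at least 5 members tested, the Hox genes held the largest share of calls. These homeobox genes lie in 4 clusters and specify position along the body axis, and ESCs keep them silent. Of 36 Hox genes in the table, 20 passed the filter and 11 were called higher (*Hoxa3*, *Hoxa7*, *Hoxa9*, *Hoxa10*, *Hoxa11*, *Hoxb7*, *Hoxc4*, *Hoxc10*, *Hoxd8*, *Hoxd10* and *Hoxd13*), beside 3.63% of all genes tested. The 11 were 55.0% of the 20 tested and 30.6% of the 36, because genes low in all lines did not pass the filter. Over all 36 the median log2 fold change was 2.27, or 1.86 with genes without WT reads at their lower bound, beside 0.07 for all genes of the table. Both dKO libraries lay above both WT libraries for 28 of the 36. Their summed count was 100 and 204 in WT and 874 and 947 in dKO. In the Hoxa cluster (mm9 chr6:52105366-52210874) the sum went from 29.4 and 43.3 to 459 and 468, and 5 of 11 members were called. In the Hoxd cluster (chr2:74506367-74603200) it went from 0 and 6.74 to 135 and 92.3, and 3 of 9 were called. For the remaining clusters the WT sums were 34.7 and 43.3 against 133 and 178 in dKO for Hoxb and 36 and 111 against 147 and 209.5 for Hoxc, with 1 and 2 members called. The level in dKO was uneven along the clusters. *Hoxa7* (65.1 and 85.2), *Hoxa9* (61.0 and 50.6) and *Hoxa10* carried most of the Hoxa sum, while *Hoxa4* and *Hoxa13* did not exceed 1 read in a dKO library. *Hoxa11* was without a WT read and had 26.4 and 17.8 in dKO, and *Hoxa11os*, transcribed from the opposite strand of the same locus, had 98.1 and 63.9. Reads were counted without regard to strand, so reads where these overlap cannot be assigned to either. *Hoxc10* was not called by edgeR (adjusted p = 0.136) or DESeq2 (adjusted p = 0.156). Of the Hox genes not called, *Hoxb13* had 13.3 and 13.5 in WT and 59.4 and 98.6 in dKO (adjusted p = 0.172). *Hoxc13* was high in WT replicate 2 already (12.0 and 79.9, against 54.4 and 56.8 in dKO).

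**Figure D3:**
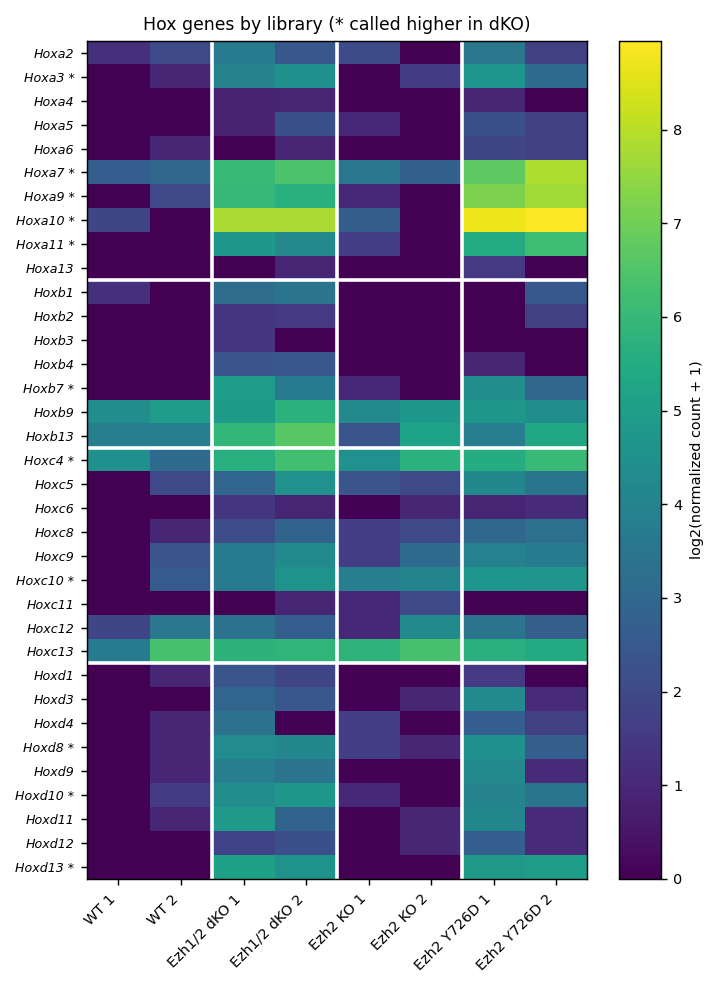
Level of Hox genes of the table in each of the 8 libraries, as log2(normalized count + 1), with asterisks for the 11 genes called higher in dKO than in WT and white lines between clusters and lines. *Hoxa7*, *Hoxa9* and *Hoxa10* are brightest in the dKO and *Ezh2* Y726D libraries, and most genes are dark in the WT and *Ezh2* KO libraries.

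Of transcription factors of other families, most stayed too low to test. Among 71 other developmental homeobox genes, 24 were tested and 5 were called higher. *Pitx1*, a factor of hindlimb and pituitary, had no WT read and 14.8 and 27.5 in dKO (at least 12.5-fold, adjusted p = 0.0282). *Meis1*, a cofactor of Hox proteins, had 29.4 and 16.4 in WT and 178 and 129 in dKO (log2 fold change 2.73 ± 0.36, adjusted p = 0.011), and *Cdx4*, *En2* and *Alx1* rose by 1.94 to 2.56 on the same scale. Among 27 tissue-specific bHLH factors, 10 were tested and 4 called higher. *Neurog1*, which commits progenitors to a neuronal fate, had 0 and 0.963 in WT and 22.3 and 29.3 in dKO (ratio 45.9, 95% interval 7.92 to 1841, 1 WT read). *Atoh1*, the factor of hair cells and cerebellar granule neurons, went from 0 and 4.81 to 42.0 and 43.5, and *Olig3*, a factor of the dorsal neural tube, from no read to 16.5 and 14.2. *Msc*, a bHLH repressor of muscle and B cells, was already expressed in WT (105 and 96.3) and rose to 232 and 205. Of 50 forkhead, Sox, T-box and GATA factors, 22 were tested and 6 called, namely *Tbx5*, *Tbx15*, *Tbx20*, *Gata3*, *Gata4* and *Sox21*. *Gata3*, a factor of trophoblast and T cells, had 50.7 and 21.2 in WT and 193 and 135 in dKO (2.26 ± 0.45, adjusted p = 0.0375). *Tbx15*, a factor of limb and skull, had 1.33 and 5.78 in WT and 41.2 and 47.1 in dKO. The endoderm factor *Sox7* (4.0 and 3.85 against 25.6 and 61.3) missed the threshold (adjusted p = 0.13). The median log2 fold change over all members in the table was 0.84, 0.89 and 0.90 for these 3 lists, or 0.38, 0.57 and 0.49 with genes without WT reads at their lower bound. Called higher were 20.8%, 40.0% and 27.3% of their members tested, but 7.04%, 14.8% and 12.0% of their members in the table.

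Some genes of several lineages were called higher, each list in part. The share called higher among all genes tested was 3.63%. Among primitive and visceral endoderm genes, 7 of 24 tested were called higher. *Col4a1*, a chain of the basement membrane collagen that this tissue secretes, had 147 and 80.9 in WT and 896 and 660 in dKO (2.81 ± 0.36, adjusted p = 0.00942), and *Col4a2*, which shares its promoter region, rose from 28.0 and 19.3 by 2.47 ± 0.33 on the log2 scale (adjusted p = 0.0114). *Dab2*, an endocytic adaptor, had 10.7 and 6.74 in WT and 74.2 and 60.4 in dKO, and *Gata4*, *Amn*, *Thbd* and *Plat* also rose. *Thbd*, the thrombin receptor thrombomodulin, had 2.67 and 0.963 in WT and 23.9 and 25.8 in dKO (ratio 14.8, 95% interval 4.81 to 73.7, 3 WT reads). The 17 tested endoderm genes not called had log2 fold changes from -0.55 to 3.05. Among them, *Lama1*, *Lamb1*, *Lamc1* and *Sparc* had 0.17, 0.75, -0.18 and 0.20. *Apoe* was the lowest, with 1413 and 1541 in WT and 1055 and 962 in dKO (adjusted p = 0.17). *Sox17* and *Foxa2* were too low to test. Among trophoblast and simple epithelium genes, 6 of 26 were called, including the partner keratins *Krt8* (74.7 and 132 in WT, 237 and 359 in dKO) and *Krt18* (56.0 and 50.1 against 223 and 199, log2 fold change 1.97 ± 0.26). These 2 keratins have many processed pseudogenes. *Anxa1*, a phospholipid-binding protein of epithelia, had 113 and 81.8 in WT and 301 and 348 in dKO. *Cdx2*, which specifies trophectoderm, varied within each line (70.7 and 9.63 in WT, 28.0 and 83.5 in dKO) and was not called.

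Heart and muscle genes numbered 4 called higher and 1 lower of 19 tested. *Myl7*, the atrial myosin light chain, had 77.4 and 50.1 in WT and 187 and 195 in dKO (1.60 ± 0.29, adjusted p = 0.0295), and *Des*, the muscle filament desmin, went from 60.03 and 51.0 to 140.1 and 117. The giant sarcomere protein *Ttn* moved the other way, from 554 and 1165 to 382 and 186 (-1.59 ± 0.41, adjusted p = 0.0795). For blood and endothelium, 3 of 16 were called (*Cd44*, *Itga2b* and *Flt4*, 18.75%). For the primitive streak and mesoderm, 2 of 18 were called (*Wnt5a* and *Cdx4*, 11.1%), beside 3.63% of all genes tested. For neural crest the share of 8.33% was 1 gene of 12 (*Tfap2a*, 24.0 and 54.9 in WT against 153 and 121 in dKO). Of 27 neural genes, 3 were called higher (*Neurog1*, *Olig3* and *L1cam*) and 1 lower (*Ina*), and the median log2 fold change was 0.06 over these 27 and 0.25 over the 39 in the table. Of 8 fibroblast and feeder cell genes tested, 3 were called higher, *Col5a2*, *Fbn1* and *Thy1* (10.7 and 4.81 in WT, 88.2 and 101 in dKO). No lineage was represented by more than 37.5% of its tested members. That share is of the fibroblast and feeder cell genes, and over the members of this list in the table it was 18.75%. Under quantile normalization the medians of the lineage lists kept their sign.

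Germline genes formed the longest set of named calls. Of 45 tested, 12 were called higher (26.7%, beside 3.63% of all genes tested). The median log2 fold change of the 53 in the table was 0.99 (0.95 with genes without WT reads at their bound). Of the 12, 8 had a mean above 50 in WT. *Tex11*, a meiotic gene of the X chromosome, had 56.0 and 76.1 in WT and 378 and 378 in dKO (2.51 ± 0.37, adjusted p = 0.0157). *Piwil2*, which binds piRNAs, had 62.7 and 59.7 in WT and 216 and 211 in dKO (1.79 ± 0.21, adjusted p = 0.0075), with little spread within either line. *Tex101*, a sperm surface protein, had 2.67 and 9.63 in WT and 93.1 and 68.4 in dKO (3.69 ± 0.58, adjusted p = 0.0217). *Dazl*, an RNA-binding protein of germ cells, had 219 and 93.4 against 397 and 426. The meiotic cohesin subunits *Stag3* and *Rec8* rose by 1.16 and 1.08 on the log2 scale, and *Tex15*, *Mael*, *Sohlh2*, *Slc25a31*, *Gm1564* (the meiotic gene *Meioc*) and *Brdt* completed the calls. The synaptonemal complex gene *Syce1* lay just under the fold threshold (0.99 ± 0.25, adjusted p = 0.0816). Other members fell, although 0 were called lower. *Tdrd12* had 790 and 682 in WT and 463 and 404 in dKO (-0.76 ± 0.19, adjusted p = 0.0724). *Hormad1* had 305.5 and 259 against 182 and 178.5. Of the 26 members at an unadjusted p under 0.05 in the limma test, 24 rose. Of the 12 genes called, *Gm1564* was the 1 that had SUZ12 at its start (a WT peak at most 5 kb away).

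Genes of the 2-cell-like state, a rare state of ESC cultures, had a median log2 fold change of 1.06. Of 27 tested, 1 was called higher (3.70%, beside 3.63% of all genes tested). With edgeR and DESeq2, 2 and 5 genes of the list were called higher. The 1 called gene was the arginase *Arg2* (44.0 and 25.0 in WT, 173 and 234 in dKO), the 1 member found with a WT SUZ12 peak. The spread within the WT line was large, as for *Zscan4d*, a gene of the zygote with close copies, which had 302 and 125 in WT and 254 and 412 in dKO. Without *Eif1a*, a translation factor that all lines expressed and that was set aside after its values were seen, the 29 other genes of the list summed to 2689 and 1138 in WT, 2988 and 4456 in dKO, 91.0 and 68.7 in *Ezh2* KO and 304 and 542 in *Ezh2* Y726D cells. The sums were lowest in *Ezh2* KO cells, and the higher WT sum lay just below the lower dKO sum. Naive pluripotency genes had a median of -0.21 and 1 of 30 was called (3.33%). The called gene was *Dppa3* (176 and 106 in WT, 283 and 414 in dKO), a maternal factor also known from the germline. *Nanog* had 1010 and 846 in WT and 854 and 918 in dKO, *Sox2* 604 and 687.5 against 688 and 595, and *Zfp42* 2375 and 1931 against 1804 and 1768, none of them called. The sign of the change of *Nanog*, *Sox2* and *Zfp42* turned with quantile normalization. Of the primed pluripotency genes 1 of 20 was called (5.0%), the growth factor *Fgf15* (16.0 and 7.70 against 33.8 and 35.5), which DESeq2 did not call (adjusted p = 0.102).

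Of the Polycomb machinery itself, 3 genes of PRC1 rose and the remaining genes of PRC2 were not called. Among 25 PRC1 subunits, 3 were called higher (12.0%, beside 3.63% of all genes tested), each with a WT SUZ12 peak near its start. *Cbx8* had 18.7 and 3.85 in WT and 73.4 and 134 in dKO (3.36 ± 0.63, adjusted p = 0.0325) and encodes a reader of H3K27me3. *Bmi1*, a ring finger partner of RING1B, had 50.7 and 77.0 against 162 and 173 (1.41 ± 0.28, adjusted p = 0.0391). For the 11 remaining PRC2 genes, limma, edgeR and DESeq2 each made 0 calls, with 3 at an unadjusted p under 0.05. *Suz12* had 603 and 530 in WT and 702 and 618 in dKO, and *Eed* had 1211 and 1210.0 against 896 and 978 (log2 fold change -0.37 ± 0.14, adjusted p = 0.214). For the enzymes that acetylate or demethylate H3K27, the 3 tools likewise made 0 calls among 5, with 1 at an unadjusted p under 0.05, and *Ep300*, *Crebbp*, *Kdm6a* and *Kdm6b* had log2 fold changes of -0.43, 0.12, -0.38 and -0.40.

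Of 30 imprinted genes tested, 3 were called higher, beside 3.63% of all genes tested. These 3 had a WT SUZ12 peak, as had 17 of the 39 imprinted genes in the table. Of all genes called higher with a known position, 48.6% had one. *Dio3*, a deiodinase expressed from the paternal allele, had 13.3 and 5.78 in WT and 95.6 and 112 in dKO (3.41 ± 0.64, adjusted p = 0.0319), *Ndn* had 56.0 and 46.2 against 222 and 257 (2.21 ± 0.32, adjusted p = 0.014), and its neighbour *Magel2* had 0 and 2.89 against 22.3 and 21.3. Among 6 genes whose imprint is carried by H3K27me3, *Sfmbt2* rose from 303 and 196 to 863 and 937 (1.88 ± 0.22, adjusted p = 0.0075), while the others were not called, *Gab1* and *Smoc1* having log2 fold changes of -0.72 ± 0.14 and -0.80 ± 0.19 that stayed under the fold threshold. Counts do not distinguish alleles. Of 6 cyclin-dependent kinase inhibitors, 0 were called by limma, edgeR or DESeq2, with 1 at an unadjusted p under 0.05. *Cdkn2a*, a classical Polycomb target, had 36 and 21.2 in WT and 65.9 and 71.0 in dKO (1.28 ± 0.38, adjusted p = 0.12), and *Cdkn1a* had 1017 and 1109 against 675 and 978. The p53 target *Pmaip1*, which encodes the apoptosis factor NOXA, was the 1 called of 19 in its list (5.26%, beside 3.63% of all genes tested). It had 85.4 and 99.2 in WT and 495 and 607 in dKO (2.56 ± 0.38). Among signalling genes, 2 of 14 Wnt ligands and antagonists were called higher, 14.3% beside 3.63% of all genes (*Wnt5a*, 6.67 and 1.93 against 50.3 and 31.1, and the secreted *Dkk3*, 14.7 and 13.5 against 101 and 110.1), and among 26 FGF, BMP and hedgehog genes 2 were higher (*Fgf15* and *Bmp8b*, 7.69%) and 1 lower, the hedgehog effector *Gli1* (104 and 101 against 41.2 and 27.5). Of the Y-linked genes tested, 5 in number, limma, edgeR and DESeq2 called 0 in dKO, with 0 at an unadjusted p under 0.05.

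**Figure D4:**
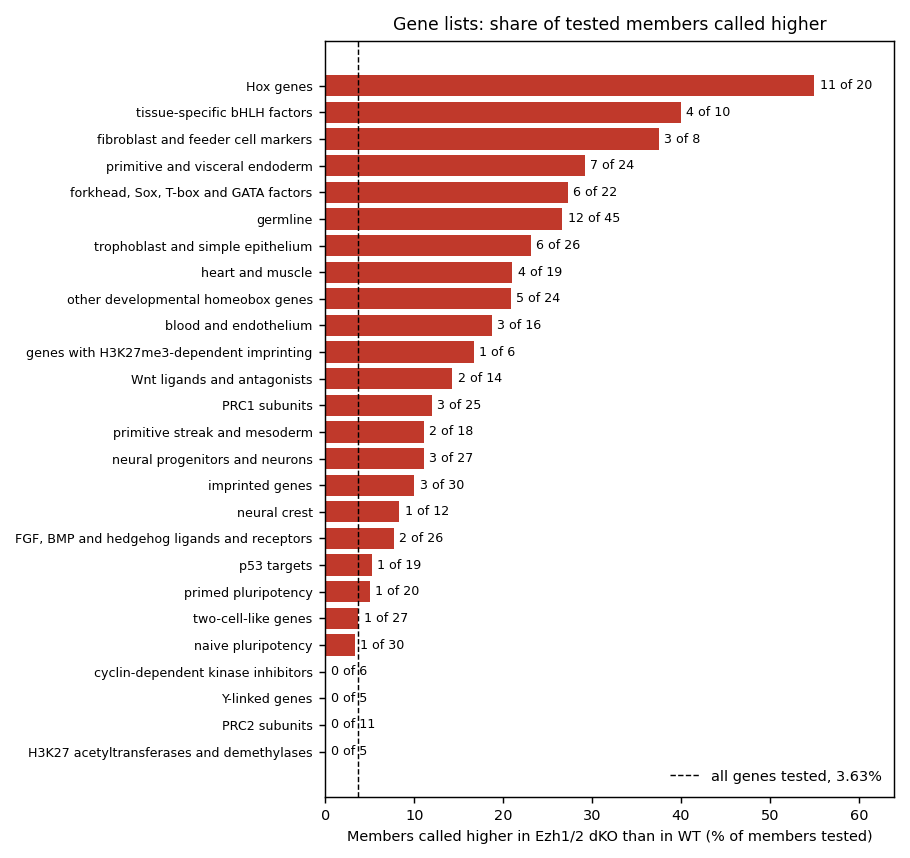
Share of the tested members of each gene list that was called higher in dKO than in WT, in percent, with the number called of the number tested beside each bar and the share among all genes tested (3.63%) as a dashed line. Hox genes stand at 55.0%, and naive pluripotency and 2-cell-like genes lie near the share of all genes. Members silent in WT were tested only where another line was high, which can raise a share. Over all members in the table, the shares were 30.6% for Hox genes, 14.8% for bHLH factors and 7.04% for other homeobox genes.

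How far the rise followed Polycomb binding was described with the peak lists, which come from 1 library per line and target. WT ESCs had 5404 SUZ12 and 16754 H3K27me3 peaks, and dKO ESCs 317 and 53. A SUZ12 peak lay within 5 kb of a start site in WT for 1944 of the 13580 tested genes with a known position, and 240 of these were called higher (12.3%), against 254 of the 11636 others (2.18%). Called higher were 8.02% of all 2991 bound genes of the table and 1.76% of the 14433 others, shares in which genes that did not pass the filter count as not called. The median log2 fold change of the bound genes tested was 0.73 and that of the others -0.04, and 1552 of the 1944 lay above 0. Bound genes had a lower WT level (median 24.0 against 213), and the part of the level in this difference was not tested. From the weakest to the strongest of 5 groups by SUZ12 peak, the share called higher was 7.2%, 10.6%, 11.95%, 16.9% and 18% of the genes tested, and 5.43%, 7.64%, 8.17%, 9.90% and 9.03% of the genes in the table. The median log2 fold change over the table was 0.55 in the weakest group and 0.90 in the strongest. Binding was therefore not followed by a call for most genes, also in the strongest group, where 300 of 598 genes passed the filter. Of the 240 bound genes called higher, 228 had a WT H3K27me3 peak as well and 3 had one in dKO. Among the 1699 bound genes not called, 1482 had such a peak in WT and 6 in dKO. A WT H3K27me3 peak was thus common to most bound genes, called or not. Of the 54 genes called lower, 5 were bound (9.26%, beside 14.3% of all genes tested). Of 15 loci that the study displayed, chosen by it on these samples and so no independent evidence, 11 were tested and 6 called higher. Without dKO replicate 1 or 2, 1 and 0 bound genes were called, and the median of the bound genes stayed at 0.71 and 0.76. With quantile normalization the median was 0.34 and 137 bound genes were called.

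Peaks of H3K27ac within 1 kb of a start site were found in dKO for 64 of the 240 bound genes called higher (26.7%) and in *Ezh2* KO for 16 (6.67%). Among the 1699 bound genes not called, these shares were 24.1% and 20.4%, and among all genes tested 40.1% and 54.4%. The dKO list is the shorter one (17618 peaks against 25483), and depths are unknown, so the lists can be compared between gene groups more safely than between lines. *Hoxa10*, *Hoxa7*, *Meis1*, *Bmi1*, *Col4a1* and *Pitx1* had such a peak in dKO and none in *Ezh2* KO, whereas *Hoxa9*, *Hoxd13*, *Gata3* and *Cbx8* had none in either list. WT H3K27ac was not analysed here.

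**Figure D5:**
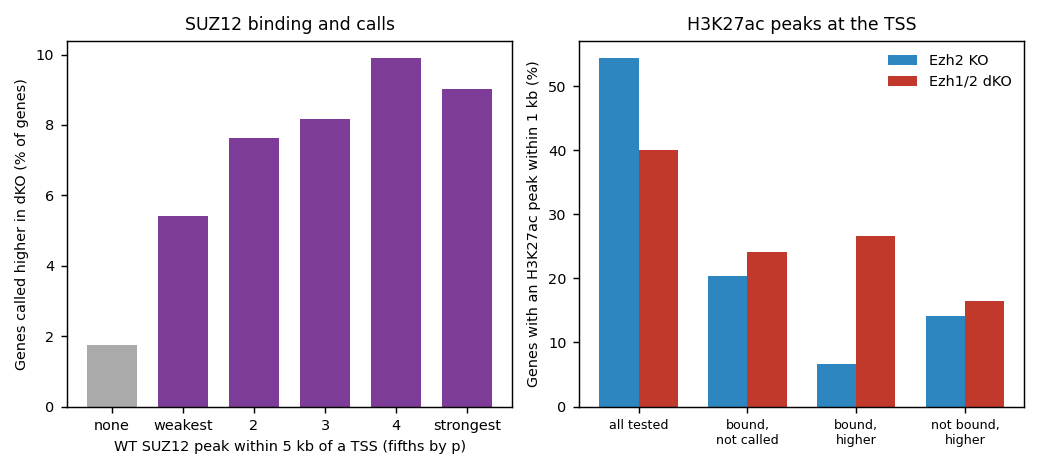
Left, share of genes called higher in dKO (percent of all genes of the table) that lack SUZ12 in WT (no peak at most 5 kb from a start, grey) and in 5 groups of bound genes by the p of the peak (purple). Right, share of genes with an H3K27ac peak within 1 kb of a start site in *Ezh2* KO (blue) and dKO (red), in which the bound genes called higher show 6.67% and 26.7%.

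The 5 promoters printed with the largest rises hold 21 CG in *Hoxa10*, 28 in *Cbx8*, 19 in *Brdt*, 3 in *Alppl2* and 5 in *Vnn1*. Over the promoters of 17424 genes the median was 17, 98.3% held at least 1 and 20.7% held at most 5. Bound genes called higher had a median of 22.0, as bound genes not called had 21.0. The 254 unbound genes called higher had a median of 11, against 19 for unbound genes not called. Over 500 bases on each side of the start, the ratio of observed to expected CpG was 0.70 for both groups of bound genes, 0.47 for unbound genes called higher and 0.71 for unbound genes not called. A ratio of at least 0.6, a usual mark of CpG islands, was reached by 73.3% of the bound and 28.7% of the unbound genes called higher. Of the 254 unbound genes called higher, 55 had a WT H3K27me3 peak within 5 kb (21.65%), against 6.26% of the 11333 unbound genes not called. The median log2 fold change of the 254 was 2.1 and that of the bound genes called higher 2.17. Genes called higher were found on every autosome and on X, from 1.74% of the tested genes of chromosome 17 to 6.07% of chromosome 6, and the median change per chromosome (autosomes and X) lay between -0.06 and 0.09.

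The comparisons with the other mutant lines share the dKO libraries with the comparison above and are given with their own counts. Against *Ezh2* KO cells, 488 genes were called higher in dKO (3.52%) and 8 lower (0.0577%). Against *Ezh2* Y726D cells, 207 were higher (1.49%) and 26 lower (0.187%). Without dKO replicate 1 or 2, 62 and 52 genes were higher than in *Ezh2* KO and 19 and 13 higher than in *Ezh2* Y726D. The summed counts of the Hox clusters did not share 1 order of the lines. *Hoxa10* had 5.23 and 0 in *Ezh2* KO, 226 and 223 in dKO and 424 and 493 in *Ezh2* Y726D cells, and the Hoxa sum was 46.0 and 30.0, 459 and 468, and 805 and 1075 in the same order. The dKO minus Y726D difference of *Hoxa10* did not pass the test (-1.02 ± 0.83, adjusted p = 0.671). The Hoxb sum was lower in *Ezh2* Y726D cells (60.6 and 72.7) than in dKO (133 and 178), and the Hoxd sum was 128 and 53.7 against 135 and 92.3. *Col4a1* had 117 and 61.9 in *Ezh2* KO and 718 and 954 in *Ezh2* Y726D cells, the latter within the error of the dKO level (dKO minus Y726D -0.11 ± 0.36 on the log2 scale). *Neurog1* and *Atoh1* did not exceed 5.59 in any library of the other lines, but their differences from *Ezh2* Y726D cells missed the threshold (adjusted p = 0.172 and 0.144). *Tfap2a* had 170 and 179 in *Ezh2* KO cells, a dKO minus *Ezh2* KO difference of -0.36 ± 0.38. Over the 503 genes called higher in dKO, median levels were 17.5 in WT, 29.7 in *Ezh2* KO, 51.7 in *Ezh2* Y726D and 86.9 in dKO. These genes were chosen for being high in dKO, so this order is a description and was not tested. The *Ezh2* Y726D libraries had almost no Y-linked transcripts (a sum of 23.2 and 23.5 over 7 genes, against 1798 to 2370 in the other lines), and what this adds to the difference from dKO was not tested.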

How the data were processed

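RNA was sequenced by SMART-seq2 (poly-A RNA, single-end reads) from 8 libraries of 4 lines. The authors used TopHat to align to mm9 and PICARD to drop duplicates, obtained gene counts (RefSeq, HTSeq-count) without regard to strand, and deposited counts divided by DESeq2 size factors (unit signal). Duplicate removal on single-end reads limits the counts of highly expressed genes, which narrows differences among them. All values (100% at a tolerance of 0.001) were whole multiples of 1 read, so reads were recovered. The authors deposited MACS2 peak lists with −log10 p values, from Bowtie alignments to mm9, 1 library per line and target, of unknown depth.

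Log2(normalized count + 1) values of genes averaging at least 5 over the 8 libraries were fitted with limma 3.58.1 (R 4.3.3; all 4 lines in 1 fit, moderated with a mean trend). A call needed a Benjamini-Hochberg adjusted p under 0.1 over all genes tested and a log2 fold change of at least 1, and ± is the SE. Folds on this scale understate changes of low genes, so genes with no WT read are given against a floor of 3 reads over the group, and genes with 1 to 3 WT reads as a ratio with an exact 95% interval, which covers counting error only. Alternatives were edgeR 4.0.16 and DESeq2 1.42.0 on recovered reads, other filters, pseudocounts, scalings, thresholds and peak rules, a replicate block, and leaving out each library. Named were the deleted genes, the 15 largest rises and 10 largest falls, called members of 27 gene lists, and up to 4 other members per list by dKO level, and the few exceptions were picked on their values. The lists and members were chosen with earlier results of these data known. Genes were placed with GENCODE vM1 (mm9; 16570 by symbol, 854 by synonym, 631 not matched), and promoter sequence is from mm9. In simulated data with 4-fold changes in dKO against WT, 175 of 197 changed genes were called among 13832 tested, with 20 false calls, and 0 were called with no change. The simulation gave every gene and line the same dispersion. Spread in the real libraries differed between lines, so the simulated rates cannot be carried over to the calls made here.

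Replicate libraries differed by more than sampling noise (mean chi-square per gene of 11.4 in WT and 3.90 in dKO). Some members of the lists are counted but not reported here by name.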

Additional observations from a re-analysis of the deposited data

Results flagged for a closer look

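The dKO libraries were also tested against each other mutant line within the same fit, which is a direct test of the difference. They share the dKO libraries with the comparison with WT. Against *Ezh2* KO, 488 genes were higher and 8 lower in dKO, and 52 to 62 were higher without 1 of the dKO libraries. On the log2(normalized count + 1) scale, the dKO minus *Ezh2* KO difference of the genes named for the largest changes was 6.50 for *Hoxa10*, 6.33 for *Hoxa11os*, 5.31 for *Hoxa9*, 4.86 for *Hoxd13* and 3.69 for *Hoxa11*. It was 4.81 for *Fmo1*, 4.27 for *Alppl2*, 3.84 for *Vnn1*, 3.46 for *Col5a2*, 3.29 for *Pla2g4a*, 2.84 for *1700019B21Rik* and 2.26 for *Nxf7*. Genes lower in dKO were *Ezh1* (-4.39), which *Ezh2* KO cells retain, *Nkx6-3* (-2.42) and *Accsl* (-1.13).

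Against *Ezh2* Y726D, 207 genes were higher and 26 lower in dKO, and 13 to 19 were higher without 1 of the dKO libraries. No Hox gene among the largest rises was in this group. The dKO minus *Ezh2* Y726D difference was 3.86 for *Alppl2*, 3.65 for *1700019B21Rik*, 3.42 for *Nxf7* and 2.69 for *Vnn1*, and it was -7.82 for *Ezh2*, -1.62 for *Def6* and -1.62 for *Accsl*. The *Ezh2* Y726D libraries had also lost nearly all Y-linked transcripts, and the part of this loss in the differences was not tested.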

How the results depend on the processing

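The calls depended most on the number of dKO libraries and on the scaling. Leaving out 1 library gave 1 to 510 genes higher than WT, 2 to 62 lower, 0 to 232 SUZ12-bound genes higher and a median of bound genes from 0.65 to 0.76. The same gave 52 to 62 higher and 1 to 2 lower than *Ezh2* KO, and 13 to 19 higher and 1 to 1 lower than *Ezh2* Y726D. Quantile normalization gave 281 higher and 108 lower than WT, 137 bound genes higher with a median of 0.34, 191 higher than *Ezh2* KO and 46 lower than *Ezh2* Y726D. At an adjusted p under 0.05, 254 were higher and 31 lower, with 126 bound, and without a minimum fold 159 were lower. The bound median was 0.85 with DESeq2, 0.57 at a mean of at least 20, 0.61 with a pseudocount of 5, 0.69 after thinning reads to the smallest library, 0.78 with peaks within 1 kb, 0.83 with peaks at p of at most 1e-20 and 0.80 with an H3K27me3 peak required. A mean of at least 20 gave 253 higher and 5 lower than *Ezh2* KO and 17 lower than *Ezh2* Y726D. DESeq2 gave 14 lower than *Ezh2* KO and 52 lower than *Ezh2* Y726D, where no filter gave 16 and a pseudocount of 0.5 gave 17. Replicate numbers were not taken to pair the libraries, since deviations from the line means correlated between same-numbered libraries at -0.144 for WT and dKO and at -0.0653 and -0.409 for WT and the other lines, although at 0.223 to 0.288 among the mutant lines. The replicate block gave 464 higher and 50 lower than WT, and crossing the WT numbers gave 958 and 117, with 433 bound. Thinning and the crossed pairing were added after seeing the data.

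The log2 fold change of *Nanog* turned to 0.12 with quantile normalization and ranged from -0.19 to 0.065 with 1 library left out. That of *Sox2* turned to 0.0104 with edgeR, 0.13 with quantile normalization and 0.0145 with upper-quartile rescaling, and ranged from -0.12 to 0.095 with 1 library left out. *Zfp42* turned to 0.0066 with quantile normalization. With 1 library left out, *Hoxc13* ranged from -0.52 to 2.12 and *Cdx2* from -0.53 to 2.22. No alternative turned the direction of any of the 92 called genes that the naming rule takes in. Only 2 of them, the deleted *Ezh1* and *Ezh2*, kept the call in every alternative run, and each of the others lost it in at least 1. The causes were not tested. With 2 libraries per line, genes at a few reads were mostly not testable.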

Other observations

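Some gene families that were not taken as lists also had members called higher. Of the genes named here, *Col4a1*, *Col4a2*, *Col5a2*, *Krt8* and *Krt18* were already counted in the lists above. They were grouped by the first letters of their symbols after their values were seen, so they are given as counts. Of 22 cytochrome P450 genes tested, 4 were called higher (*Cyp27a1*, *Cyp2j9*, *Cyp2s1* and *Cyp7b1*), and the median log2 fold change of the 22 was 0.98. Of 21 collagen genes, 4 were higher (*Col11a1*, *Col4a1*, *Col4a2* and *Col5a2*), and of 10 keratin genes 3 (*Krt12*, *Krt18* and *Krt8*). Of 19 genes whose symbols have a digit right after St, 4 were higher, the sialyltransferases *St3gal1*, *St3gal6*, *St6gal1* and *St8sia5*. Of 255 solute carrier genes, 12 were higher and 2 lower, 4.71% higher beside 3.63% of all genes.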
